A study of Homo sapiens with 21 samples.

Results

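UWB1.289 and IGROV-1 are established human ovarian cancer cell lines that served as drug-sensitive parental lines in a study of resistance acquired in culture, and their transcriptomes are compared here gene by gene. The members are the 2 RNA sequencing libraries that the labels assign to these cell lines, of 21 libraries in all, and all 53515 genes of the count files were examined. UWB1.289 is a BRCA1-mutant line from a serous ovarian carcinoma. It was labelled sensitive and given no drug, and gave rise to U10 and U100, which were made resistant to the PARP inhibitor olaparib. IGROV-1 was likewise labelled sensitive and untreated, and gave rise to IGROV-1/CDDP, made resistant to the platinum drug cisplatin. The lines were grown in the same medium with serum, and each entered as 1 library of 1 culture. The library of UWB1.289 held 11621919 counts on genes and that of IGROV-1 27485701. CPM are a gene's counts scaled to the same library total in every library. A gene with at most 3 counts was taken as off, and 3 counts correspond to 0.258 CPM in UWB1.289 and 0.109 CPM in IGROV-1. The 3 derivative libraries held between 10256404 and 25281198 counts.

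Ovarian carcinomas are mostly epithelial tumours of the Müllerian tract, the embryonic duct that forms the fallopian tube and uterus. The transcription factor PAX8 marks this lineage, while MUC16 (the CA125 antigen), mesothelin and the folate receptor FOLR1 are surface proteins by which such tumours are monitored or targeted. Cell lines from different patients and histological types can keep these features to different degrees, and those with damaged homologous recombination are the usual setting for PARP inhibitors.

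With 1 library per line there is no replicate error and no test, so no p-value is given. Each gene was scored by its difference on log2(CPM + 1), UWB1.289 minus IGROV-1, so that positive values are higher in UWB1.289. On this scale the difference of a gene with few counts comes out too small. Values in brackets after a difference are its 95% counting interval, which covers counting error only, not differences between cultures or library preparations. PCR copies are not independent molecules, so the interval can be too narrow even for counting error. A gene was called at a difference of at least 2, which is 4-fold for well-counted genes, if it had at least 1 CPM in either line. Of 15801 genes that passed this minimum, 1181 (7.47%) were called higher in UWB1.289 and 813 (5.15%) higher in IGROV-1, 12.6% in either direction. None of their counting intervals included 0, which the limit and the library depths all but fix, so it is no separate support. The median difference of all genes was -0.08, and 63.5% of the genes lay within 1 of equality. The loading genes ACTB and GAPDH differed by -0.68 and -0.37, which gives a sense of how far genes of general use can differ between these libraries.

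Replicate libraries exist for other cell lines of the series and give a scale for differences that arise without a change of line. Past the same limit lay 0.779% of the genes between the libraries of HepG2, 0.015% between those of HepG2S3 and 0 of 14358 between those of HCC4006ER. Between the libraries of HCC4006P1 it was 11.9%, and 1723 genes with at least 50 counts in its second library had 0 in its first. Whether the ovarian lines would repeat as closely was not tested. In whole-culture RNA, fewer cells expressing a gene and less RNA per cell cannot be told apart. The share of alignments outside annotated genes was 8.60% in UWB1.289 and 14% in IGROV-1, and its part in the differences was not tested.

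**Figure D1:**
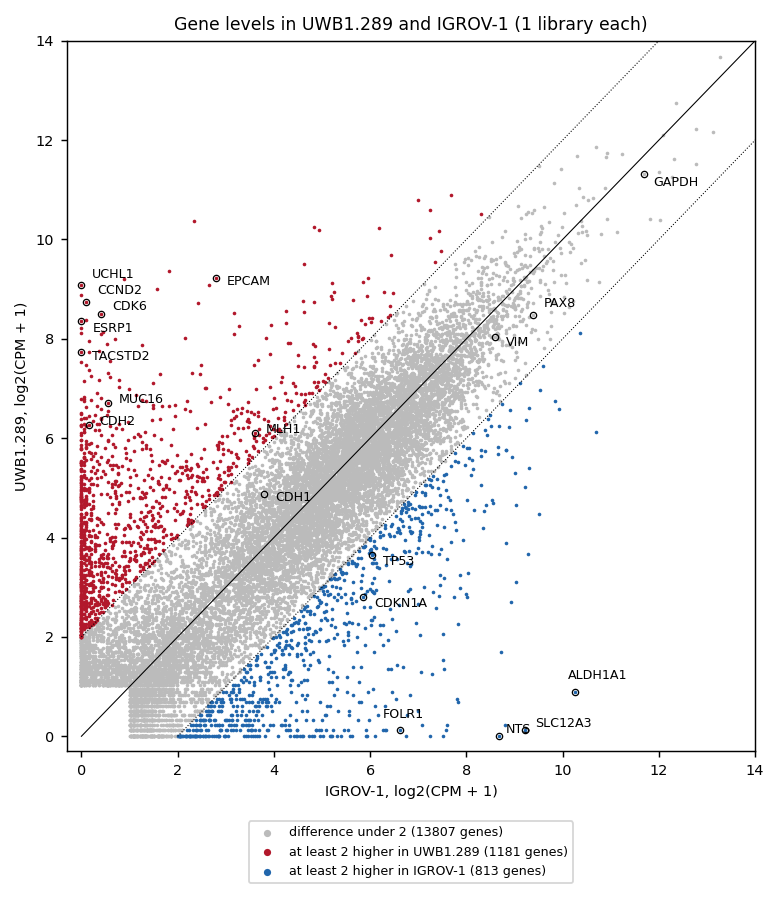
Level of each of the 15801 genes in IGROV-1 (x axis) and UWB1.289 (y axis), both as log2(CPM + 1) with 1 library per line. The solid line marks equal levels and the dotted lines a difference of 2; the 1181 genes in red are higher in UWB1.289 and the 813 in blue higher in IGROV-1, and many of the red genes lie on the y axis because IGROV-1 had few or no counts for them.

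The 12 genes with the largest differences towards UWB1.289 included genes of the extracellular matrix, the cell cycle and epithelial cells. UCHL1, a ubiquitin hydrolase of neurons and many tumours on chromosome 4 (GRCh37, 41258430 to 41270472), had 543 CPM in UWB1.289, 357 in U10 and 331 in U100, and 0 counts in both libraries of the IGROV-1 family. It was thus at least 4976-fold higher in UWB1.289, taking 3 counts as the limit in IGROV-1. PXDN, a peroxidase that crosslinks collagen IV, had 468 CPM against 0 counts. CCND2, the G1 cyclin D2, had 430 CPM in UWB1.289, 390 in U10 and 335 in U100 against 0.0728 CPM (2 counts) in IGROV-1 with 0.0396 in IGROV-1/CDDP. CDK6, the kinase that D-type cyclins activate, lies on chromosome 7 (92234235 to 92465887) and had 360, 633 and 400 CPM in UWB1.289, U10 and U100 against 0.327 and 1.86 CPM in the IGROV-1 libraries. For neither gene did the libraries of one line overlap those of the other. Among all genes called higher in UWB1.289, the derivatives lay on the parents' side for 98.1%, so such separation is usual.

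ESRP1, a splicing regulator of epithelial cells, had 329 CPM in UWB1.289 and 0 counts in IGROV-1. The matricellular genes CCN2 and TNC had 591 and 331 CPM in UWB1.289 against 0.837 and 0.0728 CPM in IGROV-1. PMEPA1, a target and inhibitor of TGF-beta signalling, had 297 CPM against 0 counts, and the proteoglycan gene SPOCK2 1322 against 4.04 CPM. LCN2, a secreted iron-siderophore carrier, had 276 CPM against 0 counts, and stood at 2879 CPM in U10 and 2221 CPM in U100. FERMT1, which encodes the integrin activator kindlin-1, had 248 against 0.109 CPM. None of these named genes reached 5 CPM in IGROV-1.

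The 12 genes with the largest differences towards IGROV-1 included transporters, a neuropeptide and a retinal-metabolizing enzyme. ALDH1A1, an aldehyde dehydrogenase used as a marker of stem-like tumour cells, lies on chromosome 9 (75515587 to 75695358). It had 1221 CPM in IGROV-1 and 0.860 CPM in UWB1.289, a difference of -9.36 (-9.70 to -8.89). In IGROV-1/CDDP it had 6.57 CPM, about as much as the 6.48 CPM of U100, so that among the derivatives the lines were not separated by it. The renal sodium-chloride transporter SLC12A3 had 590 CPM in IGROV-1 with 302 in IGROV-1/CDDP against 0.0860 CPM (1 count) in UWB1.289. NTS, the precursor of the gut and brain peptide neurotensin, had 408 CPM in IGROV-1 with 3164 in IGROV-1/CDDP against 0 counts in UWB1.289. The actin-severing gene SCIN had 445 CPM, the water channel gene AQP1 192 CPM and HAVCR1, a tubular injury marker known as KIM-1, 133 CPM in IGROV-1, each with 0.172 CPM (2 counts) in UWB1.289. SLC22A2, the kidney organic cation transporter OCT2, had 151 CPM in IGROV-1 with 11.4 in IGROV-1/CDDP against 0 counts in UWB1.289.

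OLR1, a scavenger receptor gene, and TMEM52B overlap at their ends on chromosome 12 (10310900 to 10344403), so reads from the shared stretch may have been lost or assigned to either. They had 181 and 190 CPM in IGROV-1 and 0 and 1 counts in UWB1.289, and in IGROV-1/CDDP they had 2.37 and 0.396 CPM. The guanine exchange factor genes PREX2 and VAV3 had 225 and 221 CPM against 0.602 and 0.688 CPM, and DAPK1, a death-associated kinase, 422 against 2.24 CPM. Of the 12 genes, ALDH1A1, OLR1 and TMEM52B were the ones under 10 CPM in IGROV-1/CDDP, while the other 9 had between 11.4 and 3164 CPM there.

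**Figure D2:**
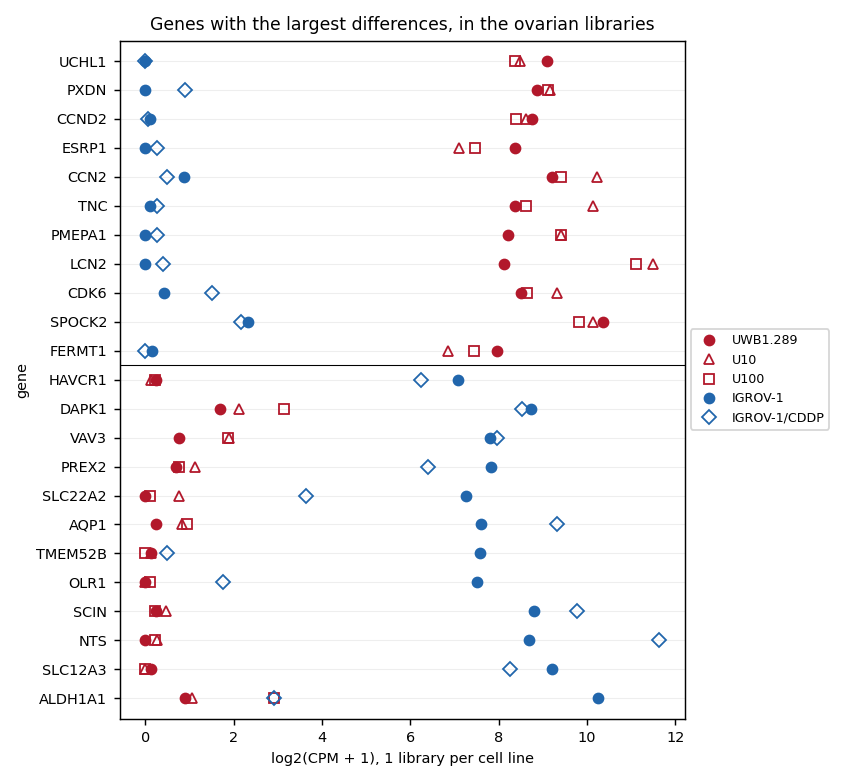
Level, as log2(CPM + 1), of genes among the 12 with the largest difference in each direction in UWB1.289 and its derivatives U10 and U100 (red) and in IGROV-1 and IGROV-1/CDDP (blue), 1 library per cell line. Above the line all red points lie right of all blue points; below it IGROV-1/CDDP lies near the red points for ALDH1A1, TMEM52B and OLR1.

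Both lines expressed the Müllerian factors PAX8 and SOX17. They differed past the limit in 9 of 20 lineage transcription factors and 11 of 21 antigens, against 12.6% of all genes. PAX8 (chromosome 2, 113973574 to 114036498) had 357 CPM in UWB1.289 and 664 in IGROV-1, a difference of -0.89 (-0.94 to -0.84), against at most 24.9 CPM in the 5 other parental lines of the series. SOX17, an endodermal and Müllerian factor, had 43.3 and 83.0 CPM. WT1, a marker of serous tumours, was at 2 counts in UWB1.289 and 0 counts in IGROV-1, so the defining serous marker was at the detection limit in both lines. Of the 20 transcription factors of this list with enough counts, 4 (20%) were called higher in UWB1.289 and 5 (25%) in IGROV-1. These shares compare with 7.47% and 5.15% of all genes, and the list median was -0.91. Those higher in UWB1.289 included SOX9 (75 against 0.0728 CPM) and GATA4 (11.7 CPM against 0 counts). Those higher in IGROV-1 included MECOM (455 against 53.3 CPM), GATA6 (28.2 against 3.27 CPM) and LHX9 (6.15 CPM against 0 counts). Here and below, list members beyond the largest differences of their list were picked for naming after their values were seen.

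Of 21 genes for ovarian cancer antigens, 10 were called higher in UWB1.289 and 1 in IGROV-1, shares of 47.6% and 4.76% against the 7.47% and 5.15% of all genes. MUC16 had 103 CPM in UWB1.289, 30.1 in U10 and 95.3 in U100, against 0.473 CPM in IGROV-1 with 0.554 in IGROV-1/CDDP. Mesothelin (MSLN) had 61.3 against 0.473 CPM, and WFDC2, which encodes the serum marker HE4, 13.9 CPM against 0 counts. CDH6, a cadherin of kidney and ovarian tumours, had 273 against 0.327 CPM, and EPCAM, the epithelial adhesion molecule, 598 against 5.97 CPM with a difference of 6.43 (6.23 to 6.62). L1CAM and CD44, both adhesion molecules, had 308 and 424 CPM in UWB1.289 and 14.3 and 27.6 in IGROV-1. The 1 antigen higher in IGROV-1 was FOLR1 (chromosome 11, 71900602 to 71907367), with 98.0 CPM in IGROV-1 with 94.5 in IGROV-1/CDDP against 0.0860 CPM (1 count) in UWB1.289, 4.97 in U10 and 1.14 in U100. The difference was -6.51 (-6.62 to -6.05). MUC16 and FOLR1 thus marked opposite lines, and for neither did the libraries of the 2 families overlap. Derivatives lay on the parents' side for 98.1% of the genes called higher in UWB1.289 and 90.0% of those higher in IGROV-1. Such separation is thus usual among called genes. The phosphate transporter gene SLC34A2, another antibody target, had 139 and 136 CPM and differed by 0.03 (-0.05 to 0.11), and EGFR 574 and 456 CPM.

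Markers of most other cell types were low, with mesothelial markers and SERPINA1 as exceptions. Summed over each list, immune markers reached 5.85 CPM in UWB1.289 and 1.49 in IGROV-1, fibroblast markers 15.7 and 8.80, endothelial markers 15.2 and 9.20, lung markers 0.688 and 2.40, pancreas markers 0.688 and 0.0728, and granulosa and gonadal markers 2.15 and 15.9. The T cell marker CD3E, the fibroblast markers DCN and LUM, the surfactant gene SFTPC and the acinar gene CPA1 were at 0 counts in both lines. The hepatocyte sum of 29.8 CPM in UWB1.289 was almost all SERPINA1, which had 29.6 CPM there and 0 counts in IGROV-1. Mesothelial markers summed to 101 and 15 CPM, mostly MSLN and PDPN in UWB1.289 (34.7 against 0.109 CPM for PDPN) and UPK3B in IGROV-1.

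Most epithelial regulators were called higher in UWB1.289, as were some the keratin and filament genes and a smaller share of the junction genes. Of 19 tested epithelial transcription and splicing regulators, 11 (57.9%) were called higher in UWB1.289, against 7.47% of all genes, and 0 in IGROV-1. Their median difference was 2.85, or 3.88 as a plain log2 ratio with genes at 0 counts placed at 3 counts. Besides ESRP1 these included the membrane protease genes ST14 (177 against 4.62 CPM) and PRSS8 (106 against 1.53 CPM), LAD1 (30.7 against 0.109 CPM), KLF4, RAB25, AP1M2, OVOL1, OVOL2 and GRHL2. GRHL2, a factor that maintains epithelial identity, had 32.0 CPM in UWB1.289, 26.2 in U10 and 34.8 in U100 against 0.691 CPM in IGROV-1 with 0.475 in IGROV-1/CDDP. ESRP2, the paralog of ESRP1, went the other way by a small amount, with 38.5 and 52.5 CPM. The protease inhibitor genes SPINT1 and SPINT2 differed by 0.33 and 0.64.

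Of 11 keratin and other intermediate filament genes, 5 (45.5%) were called higher in UWB1.289 and 1 (9.09%) in IGROV-1. For all genes the shares were 7.47% and 5.15%. The simple-epithelium keratins KRT7, KRT8 and KRT18 had 1915, 1779 and 1545 CPM in UWB1.289 against 204, 127 and 151 CPM in IGROV-1. KRT81 had 36.8 CPM against 0 counts, and the neuronal filament gene INA 158 against 3.93 CPM. KRT19 had 230 and 89.2 CPM, a difference of 1.36. The neural progenitor filament gene NES was higher in IGROV-1 (32.9 against 5.33 CPM), and vimentin (VIM) was within the limit, with 263 and 384 CPM. Keratins have many pseudogene copies, so reads shared with them may have been lost or split.

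Of 25 junction genes, 5 (20%) were called higher in UWB1.289, against 7.47% of all genes, and 1 (4%) in IGROV-1, against 5.15%, with a median of 0.73. The claudin genes CLDN4 (155 against 2.11 CPM) and CLDN7 (129 against 14.1 CPM), MARVELD3, the P-cadherin gene CDH3 (66.3 against 0.546 CPM) and EVPL (28.6 CPM against 0 counts) were higher in UWB1.289, and the desmosomal cadherin gene DSC2 in IGROV-1 (129 against 15.2 CPM). E-cadherin (CDH1) had 28.4 and 13.0 CPM, a difference of 1.08 (0.87 to 1.28) that was not called. Desmoplakin (DSP) and beta-catenin (CTNNB1) differed by -0.09 and -0.13.

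Genes that mark the mesenchymal state were split between the lines. Of 33, 12 (36.4%) were called higher in UWB1.289 and 7 (21.2%) in IGROV-1, against 7.47% and 5.15% of all genes. The median was 1.10. N-cadherin (CDH2) had 76.1 CPM in UWB1.289, 157 in U10 and 135 in U100, against 0.109 CPM (3 counts) in IGROV-1 with 29.3 in IGROV-1/CDDP. SPARC and TGFBI, secreted matrix proteins, had 236 and 281 CPM in UWB1.289 against 0.437 and 0.364 CPM, fibronectin (FN1) 1169 against 29.7 CPM, and the protease genes MMP2 and MMP14 42.9 and 51.3 CPM against 0.0364 and 0.910 CPM. Higher in IGROV-1 were S100A4, a metastasis-associated calcium-binding protein, with 183 against 1.89 CPM, the proteoglycan gene VCAN with 617 against 11.8 CPM, and ZEB1, a repressor of epithelial genes. ZEB1 had 48.8 CPM in IGROV-1 with 70.6 in IGROV-1/CDDP against 1.63, 2.92 and 2.67 CPM in UWB1.289, U10 and U100, a difference of -4.24 (-4.61 to -3.80). The line with high ZEB1 was the one with low EPCAM, ESRP1 and GRHL2. ESRP2 was slightly higher in that line, however, and CDH1, SPINT1, SPINT2, DSP and CTNNB1 were not called. TWIST1, another transcription factor tied to the mesenchymal state, was higher in UWB1.289 without being called. CDH2, FN1 and SPARC were high in the line with the epithelial genes. Whether ZEB1 accounts for any of these levels was not tested. TGFBR2 and YAP1 differed by 0.76 and -0.54.

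Basement membrane genes differed by chain. Of 27 collagen and laminin genes, 7 (25.9%) were called higher in UWB1.289 and 4 (14.8%) in IGROV-1, against 7.47% and 5.15% of all genes. The median was -0.10. The epithelial laminin chains LAMA3 and LAMB3 stood higher in UWB1.289 with 567 and 98.7 CPM against 56.4 and 2.18 CPM, as did LAMA4 (74.6 against 0.509 CPM). COL8A1 had 235 against 1.38 CPM and COL16A1 55.8 against 0.0728 CPM (2 counts). The 4 higher in IGROV-1 were COL4A1 (733 against 124 CPM), COL4A5, COL6A1 and COL18A1. LAMB2, a chain of other laminins, differed by -0.10 (-0.18 to -0.03), and COL12A1 by -0.50.

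Of 27 cell cycle regulators and tumour suppressors, 4 (14.8%) were called higher in UWB1.289, against 7.47% of all genes, and 2 (7.41%) in IGROV-1, near the 5.15% of all genes, with a median of 0.00. Beside CCND2 and CDK6, the inhibitors CDKN2A and CDKN2B, neighbours on chromosome 9, were higher in UWB1.289. CDKN2A, which encodes p16 and ARF, had 105 CPM in UWB1.289, 121 in U10 and 99.5 in U100 against 5.42 CPM in IGROV-1 with 17.0 in IGROV-1/CDDP, and CDKN2B had 14 against 0.982 CPM. Cyclin D1 (CCND1) and CDK4, the other pair of this complex, had 625 and 149 CPM in UWB1.289 and 996 and 187 CPM in IGROV-1, differences of -0.67 and -0.33. RB1, which these kinases inactivate, had 166 and 85.7 CPM. MYCL was higher in IGROV-1 (9.71 against 0.344 CPM), while STK11 and FOXM1 differed by 0.00 and -0.25. CDKN1A, which encodes the inhibitor p21 and is not a member of this list, was also called higher in IGROV-1 (56.7 against 6.02 CPM).

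Few homologous recombination, PARP and excision repair genes differed past the limit. Of 32 homologous recombination and Fanconi genes, all with enough counts, 1 was called, a share of 3.13% against 12.6% of all genes in either direction. This was FANCF, a member of the Fanconi core complex, with 9.98 against 1.31 CPM. BRCA1 had 28.5 CPM in UWB1.289, 28.7 in U10 and 28.3 in U100 against 53.2 CPM in IGROV-1 with 147 in IGROV-1/CDDP, and BRCA2 170, 177 and 121 against 74.8 and 52.2 CPM. The parental differences were -0.88 and 1.17. A transcript level does not show whether a mutant gene yields a working protein. Of 17 genes of PARP biology and PARP inhibitor response, 1 (5.88%) was called, against 12.6% of all genes. This was the drug efflux pump gene ABCB1, with 35.8 CPM in IGROV-1 with 382 in IGROV-1/CDDP against 1.12 CPM in UWB1.289. PARP1, the main target of olaparib, had 416 and 610 CPM, a difference of -0.55. SLFN11, which sensitizes cells to DNA-damaging drugs, was low in both lines with 0.946 and 0.0364 CPM (11 counts and 1 count), and was below the minimum for a call. None of 16 nucleotide excision and crosslink repair genes was called, against 12.6% of all genes, and ERCC3 and REV1 differed by -0.04 and -0.08.

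Of 10 mismatch repair genes, 2 (20%) were called, both higher in UWB1.289, against 7.47% of all genes higher there and 12.6% in either direction. A list of 10 genes is too short to set this apart from all genes. MSH6, which recognizes mismatches, had 171, 184 and 204 CPM in UWB1.289, U10 and U100 against 27.5 and 19.5 CPM in the IGROV-1 libraries, a difference of 2.59 (2.47 to 2.71). The 5 other parental lines lay above IGROV-1, from 71.0 to 187 CPM.

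Genes that handle platinum differed mainly in metal-binding proteins and uptake carriers. Of 25, 6 (24%) were called higher in UWB1.289 and 3 (12%) in IGROV-1, against 7.47% and 5.15% of all genes. The median was 0.31. Metallothioneins are small cysteine-rich proteins that bind zinc, copper and platinum, and their genes form a cluster on chromosome 16. MT2A (56642496 to 56643409) had 138 CPM in UWB1.289, 126 in U10 and 127 in U100 against 1.82 CPM in IGROV-1 with 4.83 in IGROV-1/CDDP, a difference of 5.62 (5.35 to 5.88). The 5 other parental lines had between 41.2 and 213 CPM. MT1E, MT1A and MT1M had 44.1, 8 and 5.16 CPM in UWB1.289 and 0 counts in both IGROV-1 libraries, while MT1F and MT1X differed by 0.82 each and were under 3 CPM in both lines. These genes are near-identical copies, so reads can be split between them.

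Metallothionein genes are induced through metal response elements in their promoters, and the promoter of MT2A, called higher in UWB1.289, is shown beside that of MT1X, which was not called. Each window runs from 250 bases before to 50 bases after the start of the gene in RefSeq, on the plus strand of GRCh38.p14, and matches to the element's core, TGCACNC or TGCGCNC on either strand, are in capitals. Windows were on hand for 3 of the 9 metallothionein genes listed.
MT2A (chr16:56608334-56608633): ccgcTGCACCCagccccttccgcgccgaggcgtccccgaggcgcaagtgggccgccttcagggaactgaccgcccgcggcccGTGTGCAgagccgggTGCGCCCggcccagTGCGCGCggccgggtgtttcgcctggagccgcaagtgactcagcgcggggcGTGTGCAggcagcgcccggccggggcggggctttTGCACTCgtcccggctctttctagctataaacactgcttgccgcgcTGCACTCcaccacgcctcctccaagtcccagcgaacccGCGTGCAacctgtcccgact
MT1X (chr16:56682220-56682519): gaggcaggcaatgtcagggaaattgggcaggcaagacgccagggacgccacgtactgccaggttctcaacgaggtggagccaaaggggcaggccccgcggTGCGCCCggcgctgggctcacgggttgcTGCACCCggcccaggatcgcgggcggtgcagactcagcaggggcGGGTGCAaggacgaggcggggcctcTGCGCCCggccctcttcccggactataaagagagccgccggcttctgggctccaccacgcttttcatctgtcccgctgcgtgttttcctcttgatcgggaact
The window of MT2A held 8 matches and that of MT1X 4. Of 27305 promoter windows in the table, 29.3% held at least 1 match and 0.593% at least 4. Both windows thus hold more matches than most. With 1 gene on each side, nothing about the difference between the lines can be read from these counts.

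The copper chaperone gene ATOX1 had 88.9 CPM in UWB1.289 against 11 in IGROV-1, and the secreted peroxidase gene GPX3 54.9 against 1.53 CPM. The organic cation transporter genes SLC22A2 and SLC22A3 on chromosome 6 and the glutathione transferase gene GSTA4 were higher in IGROV-1. SLC22A3 had 85.4 CPM there and 19.98 in IGROV-1/CDDP against 1.55, 11.5 and 3.05 CPM in UWB1.289, U10 and U100. The copper transporter gene SLC31A1 (CTR1), a route of cisplatin entry, had 78.9 and 82.2 CPM and differed by -0.06 (-0.17 to 0.05). None of 17 NRF2 target genes, which serve glutathione and NADPH supply, was called, against 12.6% of all genes. TXNRD1 and TKT differed by -0.05 and 0.14. Of 16 aldehyde and aldo-keto detoxification genes, ALDH1A3 (10.2 against 0.0364 CPM) and CYP2S1 (80.2 against 9.79 CPM) were called higher in UWB1.289. ALDH1A1 was called higher in IGROV-1, so that the paralogs ALDH1A1 and ALDH1A3 marked opposite lines. The shares of 12.5% and 6.25% lay near the 7.47% and 5.15% of all genes.

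Cytokine genes were mostly higher in UWB1.289. Of 20 with enough counts, 12 (60%) were called higher there and 0 in IGROV-1, against 7.47% and 5.15% of all genes. The median was 3.38, or 4.59 as a plain log2 ratio with genes at 0 counts placed at 3 counts. The neutrophil chemokine genes CXCL1, CXCL5 and CXCL8 had 66.3, 23 and 60.1 CPM in UWB1.289, while CXCL1 and CXCL5 had 0 counts in both IGROV-1 libraries and CXCL8 0.473 CPM in IGROV-1. In U10 and U100 they stood higher still, at 601 and 557 CPM for CXCL1, 349 and 250 for CXCL5 and 743 and 558 for CXCL8. IL32 had 64.4 against 1.13 CPM, the monocyte growth factor gene CSF1 241 against 19.2 CPM, and the monocyte chemokine gene CCL2 8 CPM against 0 counts. IL6, IL1A, TNF, TNFSF10, CXCL16 and CCL28 made up the rest. IL18 had 110 and 187 CPM and differed by -0.77.

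Of 20 antigen presentation genes, 5 (25%) were called higher in UWB1.289 and 0 in IGROV-1, against 7.47% and 5.15% of all genes. The median was 1.65. PSMB8, a catalytic subunit of the immunoproteasome, had 39.5 CPM in UWB1.289 against 0.0364 CPM (1 count) in IGROV-1, and between 21.9 and 60.7 CPM in the 5 other parental lines. The class II invariant chain gene CD74 had 87.0 against 0.218 CPM, and the peptide transporter gene TAP2 40.01 against 7.24 CPM. HLA-B had 242 against 18.6 CPM, whereas HLA-C had 152 and 187 CPM. Reads from HLA alleles that differ from the reference may be lost, so the HLA values are uncertain.

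Of 34 interferon-stimulated genes, 9 (26.5%) were called higher in UWB1.289, against 7.47% of all genes. The 2 (5.88%) called higher in IGROV-1 were near the 5.15% of all genes, and the list median was 0.65. The sensors of foreign nucleic acid differed one by one. IFI16 and CGAS, which sense DNA, had 54.3 and 42.1 CPM in UWB1.289 against 0 counts and 0.691 CPM in IGROV-1, and the RNA sensor IFIH1 (MDA5) had 41.3 against 6 CPM. RIGI, the other main RNA sensor, went the opposite way, at 10.6 CPM in IGROV-1 with 9.81 in IGROV-1/CDDP against 0.0860 CPM (1 count) in UWB1.289, 0.195 in U10 and 0.153 in U100. STING1, the adaptor of CGAS, had 12.6 and 18.9 CPM. The antiviral synthetase genes OAS1, OAS2 and OAS3 had 7.92, 3.53 and 37.1 CPM in UWB1.289 against 0 counts, 0 counts and 6.29 CPM, and IFI44 had 8.43 CPM against 0 counts. IFITM2 was higher in IGROV-1 (51.0 against 5.59 CPM), while its neighbour IFITM3 had 86.3 and 125 CPM. ISG15 and IFIT1 differed by 0.05 and -0.09.

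Growth factor receptors showed a different set in each line. Of 23 receptor tyrosine kinase genes, 5 (21.7%) were called in each direction, against 7.47% (UWB1.289) and 5.15% (IGROV-1) of all genes. The median was -0.52. UWB1.289 had more AXL (728 against 23.6 CPM), EPHB2 (190 against 11.7), EPHA2 (221 against 34.5), ROR1 (30.5 against 2.51) and KDR (4.47 CPM against 0 counts). IGROV-1 had more ERBB4 (185 against 1.55 CPM), FGFR1 (175 against 8.43), IGF1R (601 against 82.0), FGFR3 (45.9 against 3.96) and FGFR4 (19.2 against 1.46). In IGROV-1/CDDP, IGF1R had 65.9 CPM, below the 82.0 CPM of UWB1.289, while ERBB4 had 156 CPM and FGFR1 76.5 CPM. MET had 690 and 697 CPM and differed by -0.01 (-0.05 to 0.02).

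Wnt and BMP genes also differed in both directions. Of 25, 10 (40%) were called higher in UWB1.289 and 5 (20%) in IGROV-1, against 7.47% and 5.15% of all genes. The median was 0.45. Those higher in UWB1.289 included secreted antagonists of these pathways, namely the Wnt inhibitor DKK1 (184 CPM against 0 counts), SFRP1 (66.3 against 0.327 CPM) and DKK3 (149 against 17.0 CPM), the BMP antagonists GREM1 and NOG (33.4 and 27.8 CPM, each against 0 counts) and the activin antagonist follistatin, FST (45.2 against 0.0364 CPM). INHBA, an activin subunit, had 88.7 CPM against 0 counts. Those higher in IGROV-1 were the ligands WNT7B (402 against 50.3 CPM), WNT5A (29.5 against 2.75 CPM) and BMP2 (66.2 against 6.37 CPM) and the Wnt targets LGR5 (11.8 CPM against 0 counts) and NKD1 (3.17 CPM against 0 counts). The BMP targets ID1 and ID3 differed by -0.47 and -1.42.

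HOX genes, which set position along the body axis, were low in both lines. Of the HOXA, HOXB, HOXC and HOXD genes with enough counts, 3 of 8, 1 of 5, 2 of 2 and 3 of 6 were called higher in UWB1.289. In IGROV-1 it was 0. Among all genes the shares were 7.47% and 5.15%, and these lists are small. HOXA10, which patterns the uterus, had 10.7 CPM in UWB1.289, 11.8 in U10 and 19.2 in U100 against 0.0728 CPM (2 counts) in IGROV-1, with 0 counts in IGROV-1/CDDP. HOXA3, towards the other end of the same cluster, had 10.8 against 6.69 CPM, so that the A cluster differed in part of its genes. HOXA7, HOXD1 and HOXC4 had 6.54, 7.14 and 5.33 CPM against 0.182, 0.0364 and 0.0364 CPM. HOXB9 had 3.96 against 0.218 CPM, but 11.8 CPM in IGROV-1/CDDP.

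Among 13 imprinted genes, 3 (23.1%) were called higher in IGROV-1, against 5.15% of all genes. These were PEG10 (1311 against 277 CPM), its neighbour SGCE (139 against 32.1 CPM) and PLAGL1 (78.0 against 18.0 CPM). NDN (34.9 CPM against 0 counts) was called higher in UWB1.289, a share of 7.69%, near the 7.47% of all genes. Of 4 cancer-testis genes with enough counts, DDX43 was called (14.5 against 0.0364 CPM), and PRAME had 100 and 57.3 CPM. Of 15 DNA methylation genes, 1 (6.67%) was called higher in IGROV-1, near the 5.15% of all genes. This was TET1, which oxidizes methylcytosine, with 27.9 CPM in IGROV-1 with 15.3 in IGROV-1/CDDP against 3.36 CPM in UWB1.289. The maintenance enzyme gene DNMT1 differed by 0.35.

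**Figure D3:**
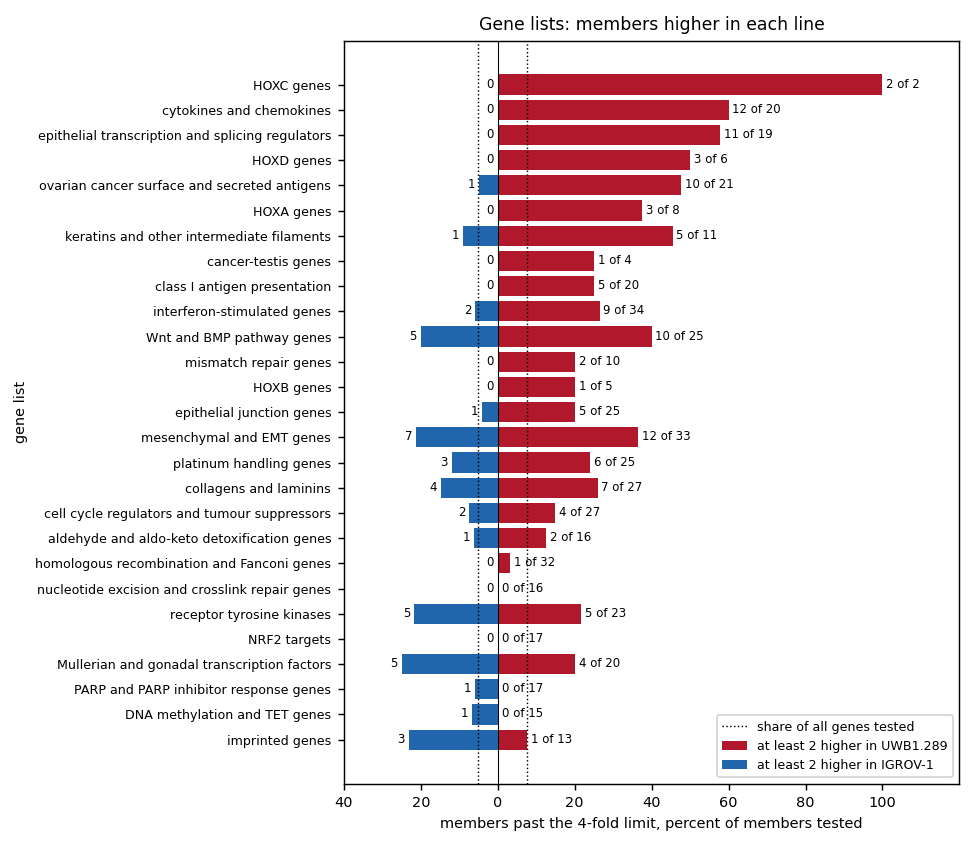
Share of the members of each gene list that were called higher in UWB1.289 (red, to the right) or in IGROV-1 (blue, to the left), in percent of the members tested; the numbers give the called members and, on the right, the number tested, and the dotted lines mark the 7.47% and 5.15% of all genes. Cytokine and epithelial regulator genes reach furthest to the right among lists with over 10 members, while the homologous recombination, excision repair and NRF2 lists stay at or near 0 on both sides.

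Some genes were on in one line and off in the other, taken as at least 10 CPM in one and at most 3 counts in the other. Of 13192 protein-coding genes tested, this held for 197 on in UWB1.289 and for 72 on in IGROV-1. Of the 197, 118 were also on in U10 and U100 and off in IGROV-1/CDDP. Of the 72, 30 were also on in IGROV-1/CDDP and off in U10 and U100. The share of all protein-coding genes meeting such rules in the derivatives or in other lines was not computed, so these counts are descriptions. Because IGROV-1 was sequenced more deeply, 3 counts are a lower level there, and the off state was the stricter one in IGROV-1. Levels in the 5 other parental lines, from liver, pancreas and lung, are given as a description. The genes were picked for being off in 1 line, so presence elsewhere can follow from that choice. Among these lines, HCC4006P1 and HCC4006P2 share a cell line name. The HCC4006P1 level is the mean of its libraries, and 1723 genes with at least 50 counts in its second library had 0 in its first. The following genes were singled out after their values were seen. Of the 197, 15 were on in all 5 other lines, so that among the parental lines IGROV-1 alone had them off. They included CADM1, an adhesion molecule and tumour suppressor (46.5 against 0.0728 CPM), the growth factor gene TGFA (68.5 against 0.0364 CPM), UBE2L6, the enzyme that conjugates ISG15 (26.2 CPM against 0 counts), TRIM47 (47.3 against 0.0364 CPM) and NFIA (30.2 against 0.0364 CPM), beside FERMT1, PSMB8, LAD1 and EVPL from above.

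Of the same 197, 23 were under 1 CPM in all 5 other lines. These included the brain patterning genes ZIC1 (20.3, 21.3 and 22.9 CPM in UWB1.289, U10 and U100) and ZIC4 (12.5, 12.6 and 12.1 CPM), each with 0 counts in both IGROV-1 libraries. The raft protein gene MAL had 106 CPM in UWB1.289 and AJAP1 141 CPM, each with 1 count in IGROV-1. CRYAB, a small heat shock protein, had 113 CPM in UWB1.289 and 1 count in IGROV-1, but 117 CPM in IGROV-1/CDDP, so that it separated the parental lines and not the derivatives.

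Of the 72 genes on in IGROV-1, 26 were under 1 CPM in all 5 other lines. Beside SLC12A3, NTS, OLR1, TMEM52B and SLC22A2 they included LIN28A, an RNA-binding protein of stem cells (52.8 against 0.258 CPM), NLGN4X (59.6 against 0.0860 CPM) and CYTIP (68.0 CPM against 0 counts). The 7 that were on in all 5 other lines, and thus missing from UWB1.289 alone, were ANKMY2, BZW2, TSPAN13, SNX13, CD99L2, LY6E and NECTIN1. LY6E had 77.7 CPM in IGROV-1 with 115 in IGROV-1/CDDP against 0.0860, 0.292 and 0.229 CPM in UWB1.289, U10 and U100, and NECTIN1, a junction protein, 21.1 and 33.0 CPM against 0.258 CPM, 0 counts and 0 counts.

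The first 4 of these 7 are neighbours, and position was therefore examined for all protein-coding genes. Of the 13192 protein-coding genes tested, 8.19% were called higher in UWB1.289 and 5.33% higher in IGROV-1. In chromosomal order, 44 runs of at least 3 neighbours were called in the same direction, 27 of them higher in UWB1.289 and 17 higher in IGROV-1. Neighbouring genes can be paralogs that share reads and regulation, so a run is a description. On chromosome 7 (GRCh37, 16639404 to 17980124), ANKMY2, BZW2, TSPAN13, AHR and SNX13 were all higher in IGROV-1. ANKMY2, BZW2 and SNX13 had 0 counts in each of UWB1.289, U10 and U100, at 27.5, 23.2 and 106 CPM in IGROV-1. AHR, the dioxin receptor, had 46.0 CPM in IGROV-1 and 0.430, 0.487 and 0.610 CPM in UWB1.289, U10 and U100, against 170 to 621 CPM in the other parental lines. Past the run, HDAC9 had 158 CPM in UWB1.289 and 148 in IGROV-1, and POLR1F 96.8 and 81.5 CPM. For SNX13 the other parental lines had between 43.3 and 146 CPM, so the gap over this stretch was in UWB1.289 and its derivatives.

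The longest run held 7 genes on chromosome X (100673275 to 101410949), ARMCX4, ARMCX1, ARMCX6, ARMCX3, ARMCX2, ZMAT1 and BEX5, all higher in UWB1.289. ARMCX genes encode mitochondrial outer membrane proteins. ARMCX3 had 61.3, 43.5 and 91.1 CPM in UWB1.289, U10 and U100 and 0 counts in both IGROV-1 libraries, and ARMCX1 and ARMCX6 likewise had 0 counts in both. The gene HNRNPH2 just before the run had 133 and 97.0 CPM. ARMCX5, past the run, had 24.1 CPM in UWB1.289 and 21.8 in IGROV-1 but 0.316 CPM in IGROV-1/CDDP. A second run on chromosome X lay in and beside the pseudoautosomal region (ASMTL, AKAP17A, DHRSX, ZBED1, CD99 and GYG2), was higher in IGROV-1 and had a median difference of -2.85. Most of its genes have an identical copy on the other sex chromosome, so their counts depend on how such reads were treated.

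A run on chromosome 10 that was higher in IGROV-1 included TBC1D12, HELLS, CYP2C18 and CYP2C19. The drug-oxidizing genes CYP2C18 and CYP2C19 had 19 and 8.33 CPM there and 1 and 2 counts in UWB1.289, while HELLS, a chromatin remodeller, had 265 and 54.6 CPM. On chromosome 12 (113343661 to 113574044) the OAS genes were followed by DTX1 and RASAL1, the latter with 39.9 CPM in UWB1.289 and 0 counts in IGROV-1. The metallothionein run on chromosome 16 (56642496 to 56673999) ended at MT1A, and the next gene, MT1F, was not called. Across whole chromosomes the median difference ran from -0.57 on chromosome 15 to 0.46 on chromosome 8, and was -0.63 over the 13 mitochondrial genes, none of which was called.

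**Figure D4:**
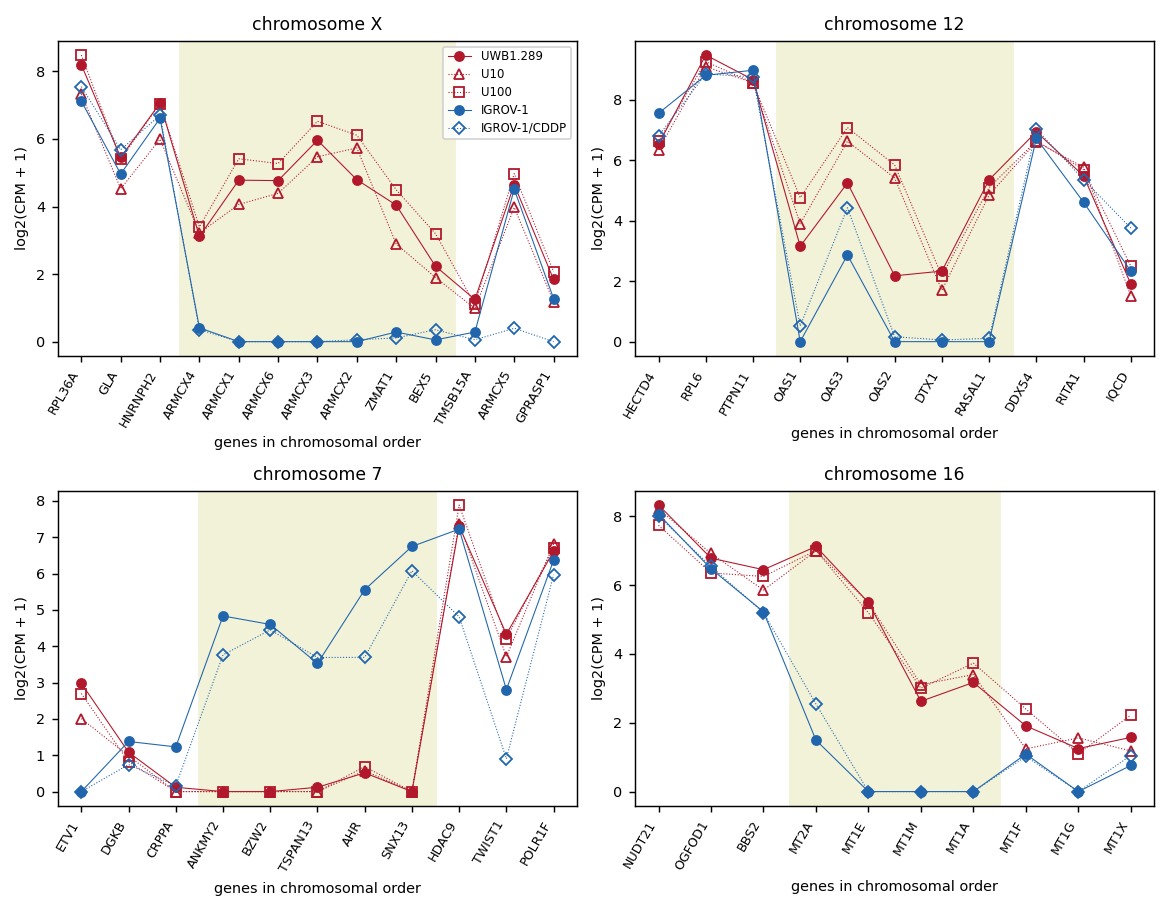
Level, as log2(CPM + 1), of neighbouring protein-coding genes in chromosomal order in the 5 ovarian libraries, with the called run shaded and up to 3 tested genes on each side. Inside the runs on chromosomes X, 12 and 16 the red points of UWB1.289, U10 and U100 lie above the blue points of the IGROV-1 libraries; on chromosome 7 the red points are at or near 0 inside the run and at 96.8 CPM or more again at HDAC9 and POLR1F.

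The derivatives are libraries that the parental comparison did not use, though they are not replicates of their parents. A gene was counted as carried over where both U10 and U100 differed from IGROV-1/CDDP by at least 2 in the same direction as the parents. Of the 1181 genes higher in UWB1.289, 852 (72.1%) were carried over, against 7.86% of all genes tested, and of the 813 higher in IGROV-1, 351 (43.2%), against 3.34%. At any size the derivatives lay on the parents' side for 98.1% and 90.0% of the genes, against 43.1% and 43.6% of all genes. The opposite call was met by 1 and 4 genes. By list, all 12 cytokine genes, 10 of 10 antigens, 9 of 9 interferon-stimulated genes and 10 of 11 epithelial regulators higher in UWB1.289 were carried over, but 2 of 3 HOXA, 1 of 3 HOXD, 0 of 2 HOXC and 0 of 1 HOXB genes and, of those higher in IGROV-1, 0 of the 4 collagen genes. CDH2 in IGROV-1/CDDP (29.3 CPM) and ALDH1A1 (6.57 CPM) are cases in which the cisplatin-resistant derivative lay nearer to UWB1.289 than its parent did. As a description across the 15801 genes, which share library and depth and are no replicates, Pearson's r of log2(CPM + 1) was 0.798 between the parental lines, 0.961 and 0.973 between UWB1.289 and its derivatives, and 0.954 between IGROV-1 and IGROV-1/CDDP.

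**Figure D5:**
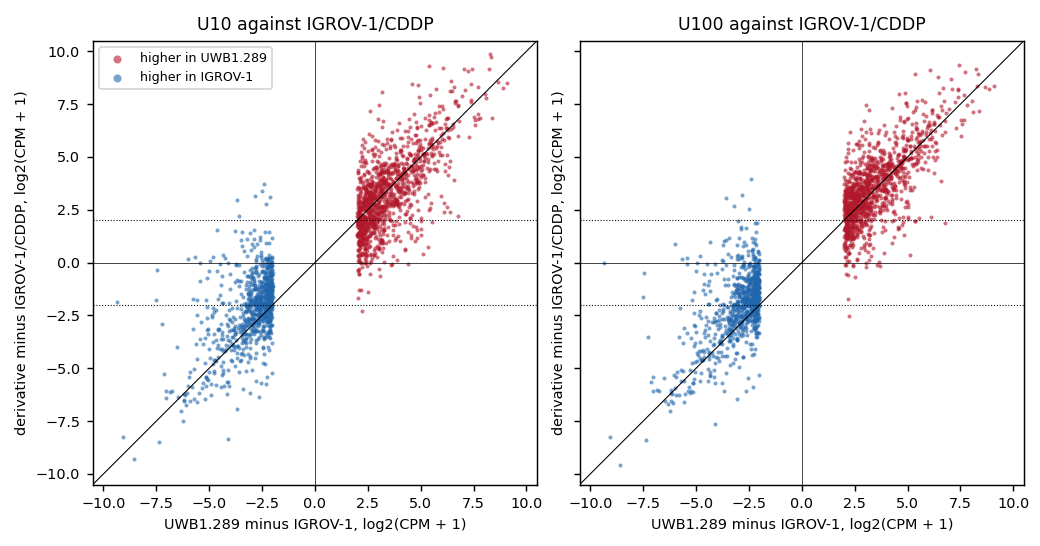
Difference of U10 (left) and U100 (right) from IGROV-1/CDDP (y axis) against the difference of UWB1.289 from IGROV-1 (x axis) for the 1994 called genes, all on log2(CPM + 1). Genes higher in UWB1.289 (red) lie along the line of equality, while many genes higher in IGROV-1 (blue) lie between it and 0; the dotted lines mark the limit of 2.

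The other parental lines were nearer to UWB1.289 on most of the genes higher in IGROV-1, while on the genes higher in UWB1.289 the balance depended on the lines included. By the median of HepG2, PancVB, HCC4006P1, HCC4006P2 and HCC827P, 594 of the 1181 genes (50.3%) lay nearer to the higher level of UWB1.289, and 210 of the 813 (25.8%) nearer to the higher level of IGROV-1. HCC4006P1 and HCC4006P2 carry the name of the same cell line. Without them, 478 genes (40.5%) lay nearer to UWB1.289 and 186 (22.9%) nearer to IGROV-1. All these shares cover called genes only, and no share over all tested genes was set beside them. Called genes were picked for a high level in their line, so a lower level elsewhere can follow from that choice. The shares therefore do not show which line was unusual.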

How the data were processed

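Per the labels, the methods and the submitters' processing notes, the authors extracted total RNA with TRIzol, made libraries of oligo-dT captured RNA with a stranded KAPA kit, mapped reads to hg19 with TopHat and Bowtie and made the deposited gene count files with HTSeq, 1 for each library. Versions and the strand setting are not given in the sources used here, so antisense genes may share counts. HTSeq set aside 25.4% of the reads of UWB1.289 and 26.4% of those of IGROV-1 as not unique, which affects near-identical genes. Rows without a gene were left out of the totals. Symbols and GRCh37 positions came from GENCODE for 45100 of 53515 genes (84.3%), which held 98.7% of the counts of UWB1.289 and 98.3% of those of IGROV-1.

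CPM were computed from each library's total on genes (pandas 2.3.3, numpy 2.4.6). Differences are on log2(CPM + 1), UWB1.289 minus IGROV-1, with 95% counting intervals combined from the Wilson intervals of both libraries, and genes with at least 1 CPM in either line were tested against a limit of 2. With 1 library per line no test was run, and p-values are not given. The interval and call steps were checked on simulated counts. The genes named are the 12 protein-coding genes with the largest difference in each direction and at least 10 CPM in the higher line, the members of the 5 longest runs, up to 4 called and 2 least different per list and a short list of standard genes, and further genes were chosen after their values were seen. The members and lists were chosen with earlier results of these data known. Promoters are RefSeq sequences of GRCh38.p14. Alternatives were other pseudocounts, limits and filters, TMM factors (edgeR 4.0.16), median-of-ratios size factors (DESeq2 1.42.0) and centring by gene length. CG content of promoters was not compared, since under 80% of the genes on in 1 line had a window. Some genes, and a list built on one of them, are not reported here.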

Additional observations from a re-analysis of the deposited data

How the results depend on the processing

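The number of genes called depends on the pseudocount and the limit. Against 1994 genes (1181 higher in UWB1.289 and 813 in IGROV-1), a pseudocount of 0.1 CPM gave 3262 (1840 and 1422) and one of 5 CPM 938 (571 and 367), while a limit of 1 gave 5764 (2879 and 2885) and one of 3 gave 932 (626 and 306). Counting derivatives on the parents' side at any size carried over 1890 genes, 732 of them higher in IGROV-1. TMM scaling, median-of-ratios scaling, no filter, a filter of 10 CPM, protein-coding genes alone and length centring gave between 1488 and 2003 genes, of which between 57.9% and 62.3% were higher in UWB1.289, against 59.2%. Of 130 named genes past the limit, 128 stayed past it with TMM scaling and 125 with length centring. No value past the limit changed sign, but differences near 0 did, that of MET with TMM scaling and those of XRCC1, MET, ERCC3, TXNRD1, REV1, DSP and CTNNB1 and 3 list medians (excision repair, NRF2 and DNA methylation) with length centring, all at most 0.13 in size before. With HCC4006P1 taken from its second library alone, or both HCC4006 lines left out, alternatives chosen after seeing the data, 790 and 664 called genes had an other-line median nearer to the higher line, against 804, and among genes higher in UWB1.289 the latter lowered the share from 50.3% to 40.5%. Without U10 or without U100, also chosen after seeing the data, 1381 and 1291 genes were carried over, against 1203. No paired analysis was possible because each line has 1 library and no test was run. Neither parental library could be left out. With 3 counts at 0.258 CPM in UWB1.289 and 0.109 CPM in IGROV-1, levels at or below these were taken as off, and their values are uncertain.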
